A study of Mus musculus with 16 samples.

Results

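The acute response of the adult mouse uterus to dexamethasone, a synthetic glucocorticoid, was examined in animals that had received genistein as newborns. It was chosen as the comparison of the 4 arrays of genistein-exposed, dexamethasone-treated uterus with the 4 arrays of genistein-exposed, vehicle-treated uterus, which together make up 8 of the 16 arrays in the series. Genistein is a soy isoflavone that binds estrogen receptors. It was given at 50 mg/kg, dissolved in corn oil, on postnatal days 1 to 5. All animals lost their adrenals and ovaries at 6 weeks of age, so the main sources of corticosterone, estrogen and progesterone were absent from every group. At 8 weeks they received 1 mg/kg dexamethasone in saline or 100 µl of saline alone, called the vehicle here, and whole uterus was taken 4 h later. The other 8 arrays come from animals given the corn oil carrier alone (20 µl) as newborns and then treated in the same way, 4 with dexamethasone and 4 with vehicle. The sample labels call that neonatal control saline, whereas the design text calls it corn oil, and it is called the neonatal control here. The labels do not say that the arrays of a group come from separate animals, and p-values therefore rest on the array-to-array spread alone, which may be technical.

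Glucocorticoids act through the glucocorticoid receptor, a transcription factor held in the cytoplasm by chaperones until hormone binds. The receptor then moves to the nucleus, where it binds palindromic DNA elements and raises transcription of some genes within minutes to hours. At other genes it restrains inflammatory factors such as NF-kappaB and AP-1, and new anti-inflammatory proteins add to that effect. In the uterus, glucocorticoids are known to oppose several actions of estrogen and to limit inflammation.

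Each value below is a level: the log2 of the background-subtracted spot signal minus the log2 of the 75th percentile of signals on that array, so that 0 means a spot as bright as the 75th percentile. A change is the mean level on the dexamethasone arrays minus that on the vehicle arrays, given with its standard error from the fit, and n is 4 arrays in each group throughout. A gene was called when limma's adjusted p (Benjamini-Hochberg over all 24651 genes and unnamed targets) was below 0.05. On the 8 arrays the 75th percentile lay between 1321 and 1970 intensity units, and the share of spots that passed the scanner software's background test was 74.9 to 81.3%. The number of arrays limits the precision.

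The vehicle group held arrays that stood apart. The first principal component of the 8 arrays carried 35.4% of the variance and set vehicle arrays 3 (96.0) and 4 (70.8) against vehicle arrays 1 (-48.9) and 2 (-53.1), with the dexamethasone arrays between -54.4 and 12. The second component carried 20.6% and placed all vehicle arrays between -53.6 and -18.6 and all dexamethasone arrays between 23.1 and 60.4. Among the vehicle arrays, uterine epithelium markers split as the first component did. Their list level (the median over 25 measured markers of the deviation from each gene's mean) was 0.53 and 0.52 on vehicle arrays 3 and 4. On vehicle arrays 1 and 2 it was -0.53 and -0.61. Mesothelium markers split likewise (0.56 and 0.59 against -0.13 and -0.20). Wnt, Hox and Hedgehog genes split the opposite way (-0.18 and -0.12 against 0.22 and 0.28). The dexamethasone arrays had epithelial levels of -0.28, -0.08, 0.13 and 0.35, which overlap the vehicle range. Counts without vehicle arrays 3 and 4 are therefore given wherever that fit moved a list's count by over 1.5 times or added a direction. The part of these markers in the results was not tested.

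Dexamethasone changed 1303 of 24651 genes in the genistein arm (5.29%). Of these, 614 rose (2.49%) and 689 fell (2.8%). The 8 arrays did not overlap between groups for 3016 genes (12.2%), among them 1253 of the called ones. The median change of all genes was -0.015. Changes beyond 2-fold were found for 291 rises and 339 falls, and beyond 4-fold for 80 rises and 54 falls. Of the slides, 3 held arrays of both groups, and 1294 of the 1303 called genes (99.3%) changed in the same direction within each of the 3 slides. Over all genes that share was 36.8%. These slides hold the arrays the calls were made on, so both shares are a description. Without vehicle arrays 3 and 4 the fit called 1451 genes, of which 728 were also called with all arrays (55.9% of the 1303). That fit had 519 rises and 932 falls, and all 1303 kept their direction. After normexp background correction 382 genes were called, 252 higher and 130 lower. That correction moved the median change of all genes to 0.31, and changes given after it below are to be read against that median. Leaving out any 1 of the 16 arrays gave between 719 and 1230 called genes. The count fell by more than 1.5 times without vehicle array 1 (862), dexamethasone array 2 (835) or dexamethasone array 3 (719).

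**Figure D1:**
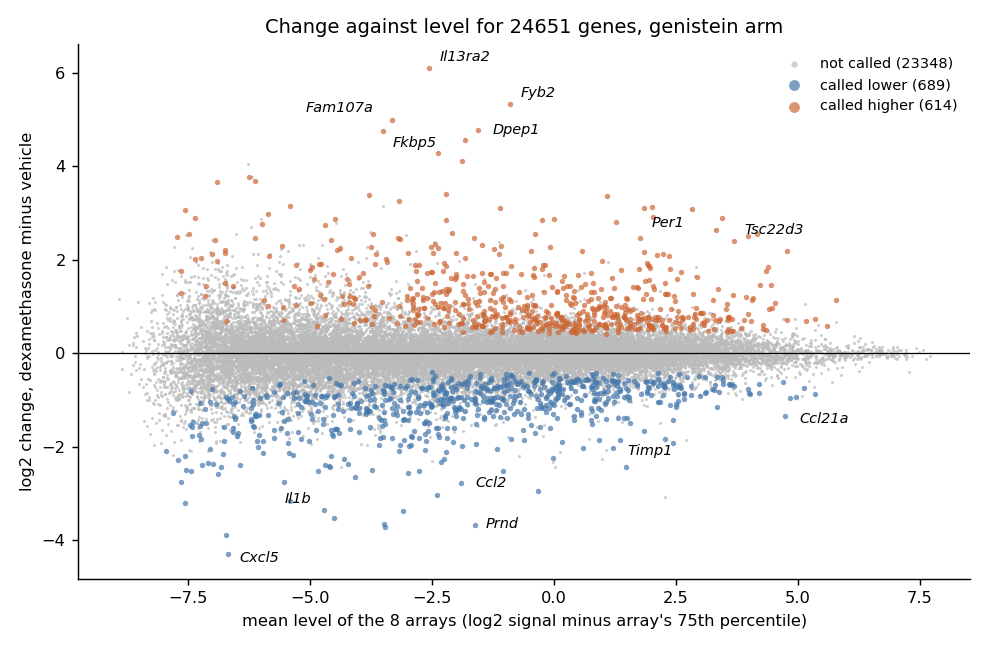
Change (vertical axis, log2) against the mean level of the 8 arrays (horizontal axis, log2 relative to the 75th percentile) for all 24651 genes, with 614 called higher, 689 called lower and the rest in grey. Il13ra2 lies highest, at 6.10. The fitted change of Cxcl5 (-4.31) rests on dexamethasone arrays that were not well above background.

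The plot of change against level shows calls along the whole range of brightness. In the dimmest of 5 equal classes 30 genes rose and 83 fell. The middle class held 169 rises and 219 falls. The order turned in the next brighter class, with 185 rises and 160 falls, and the brightest class held 173 rises and 93 falls. Falls thus outnumbered rises among dim targets, and rises outnumbered falls among bright ones.

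The receptor and the enzymes that supply its ligand were examined first, in a list of 34 measured genes of which 5 rose and 1 fell (3 rises and 1 fall without vehicle arrays 3 and 4). The receptor gene itself, Nr3c1, was at 2.10, 1.87, 1.80 and 1.62 on the vehicle arrays and 1.23, 1.10, 1.02 and 1.04 on the dexamethasone arrays. All 4 dexamethasone arrays were below all 4 vehicle arrays, and the change was -0.75 ± 0.13, adjusted p = 0.0035. Its other 3 probes gave changes of 0.06, -0.58 and -0.58, and the call was lost when the probes were averaged (adjusted p = 0.14). Fkbp5, the cochaperone that lowers the receptor's affinity for hormone and is itself a classical target, was at -4.06, -4.50, -3.78 and -4.08 on the vehicle arrays and -0.05, 1.14, 0.54 and 0.21 on the dexamethasone arrays. This 23.6-fold rise (4.56 ± 0.38, adjusted p = 1.6e-05) left a wide gap between the groups. Hsd11b2 encodes the dehydrogenase that inactivates corticosterone. Its level was -4.0, -3.37, -3.83 and -4.52 on the vehicle arrays and -0.04, 0.49, 0.33 and -0.07 on the dexamethasone arrays, a 17.2-fold rise (4.11 ± 0.29, adjusted p = 2.7e-06). The reverse reaction is catalysed by Hsd11b1, which depends on H6pd for its cofactor. Both rose less, Hsd11b1 by 0.95 ± 0.26, adjusted p = 0.045 and H6pd by 0.73 ± 0.15, adjusted p = 0.013. Abcb1b, a drug efflux pump of the P-glycoprotein family, rose by 0.97 ± 0.20, adjusted p = 0.011. The call of Hsd11b1 was lost in 14 of 16 omissions (adjusted p up to 0.12) when single arrays were left out, whereas no such omission ended the calls of Fkbp5, Hsd11b2, Abcb1b, H6pd or Nr3c1.

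Classical glucocorticoid targets rose together. Of 51 measured members, 32 rose and none fell, with a median change of 1.18 against -0.015 for all genes. The median was 0.95, 1.37 and 1.05 within the 3 slides. Leaving out single arrays gave 23 to 33 rises, and 28 rose without vehicle arrays 3 and 4. The list was drawn up with earlier results of these arrays known, so its count is a description. Fam107a, an actin-binding protein induced by stress, was at -5.80, -5.59, -6.10 and -5.77 on the vehicle arrays and -1.0, -0.67, -0.62 and -0.98 on the dexamethasone arrays. No array of one group approached the other, and the rise was 32-fold (5.00 ± 0.32, adjusted p = 9.7e-07). Map3k6, a kinase at the top of stress-activated MAP kinase cascades, was at 0.60, 0.40, 0.47 and 0.33 on the vehicle arrays and 3.57, 3.57, 3.73 and 3.41 on the dexamethasone arrays, with a change of 3.12 ± 0.19, adjusted p = 6.3e-07. Its arrays spread over 0.27 in the vehicle group and 0.32 in the dexamethasone group.

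Targets with regulatory roles followed. Tsc22d3 encodes GILZ, a leucine zipper protein that binds and restrains NF-kappaB and AP-1. It was at 2.26, 2.15, 2.75 and 2.81 on the vehicle arrays and 4.82, 5.17, 4.71 and 4.86 on the dexamethasone arrays, a 5.28-fold rise (2.40 ± 0.22, adjusted p = 2.2e-05). Dusp1, the phosphatase that switches off p38 and JNK, was at -0.01, -0.24, 0.34 and -0.11 on the vehicle arrays and 1.47, 2.40, 2.20 and 1.82 on the dexamethasone arrays (1.98 ± 0.19, adjusted p = 4.1e-05). Both genes separated the groups on every array. Errfi1, a feedback inhibitor of the EGF receptor, was at 1.94, 1.82, 2.19 and 2.07 on the vehicle arrays and 4.49, 5.14, 5.13 and 4.8 on the dexamethasone arrays, a 7.4-fold rise (2.89 ± 0.19, adjusted p = 1.3e-06). The transcription factors Klf15 (2.07 ± 0.25, adjusted p = 2.4e-04) and Klf9 (1.86 ± 0.17, adjusted p = 3.1e-05) rose as well. Sgk1, the kinase that promotes epithelial sodium uptake, was at 1.77, 1.08, 1.64 and 1.64 on the vehicle arrays and 2.56, 3.25, 3.27 and 3.10 on the dexamethasone arrays, with a smaller change of 1.51 ± 0.21, adjusted p = 7.0e-04. Other members that rose were the mTORC1 inhibitor Ddit4 (2.18), the oxygen-response factor Hif3a (2.27), the cell cycle inhibitor Cdkn1a (1.88), the extracellular peroxidase Gpx3 (1.63) and the lymphatic hyaluronan receptor Lyve1 (1.43), with adjusted p between 1.7e-04 and 0.0018. Other, dimmer probes of Hif3a gave 0.38 and 1.29. Tat, the tyrosine aminotransferase long used as a marker of glucocorticoid action in liver, was at -2.63, -2.26, -4.36 and -4.23 on the vehicle arrays and -1.32, -1.20, -0.39 and -0.32 on the dexamethasone arrays. Its rise was 2.56 ± 0.57, adjusted p = 0.019, and vehicle arrays 3 and 4 were lower than arrays 1 and 2. The call of Tat was lost without vehicle array 3 or 4 or dexamethasone array 3 or 4 (adjusted p up to 0.06).

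**Figure D2:**
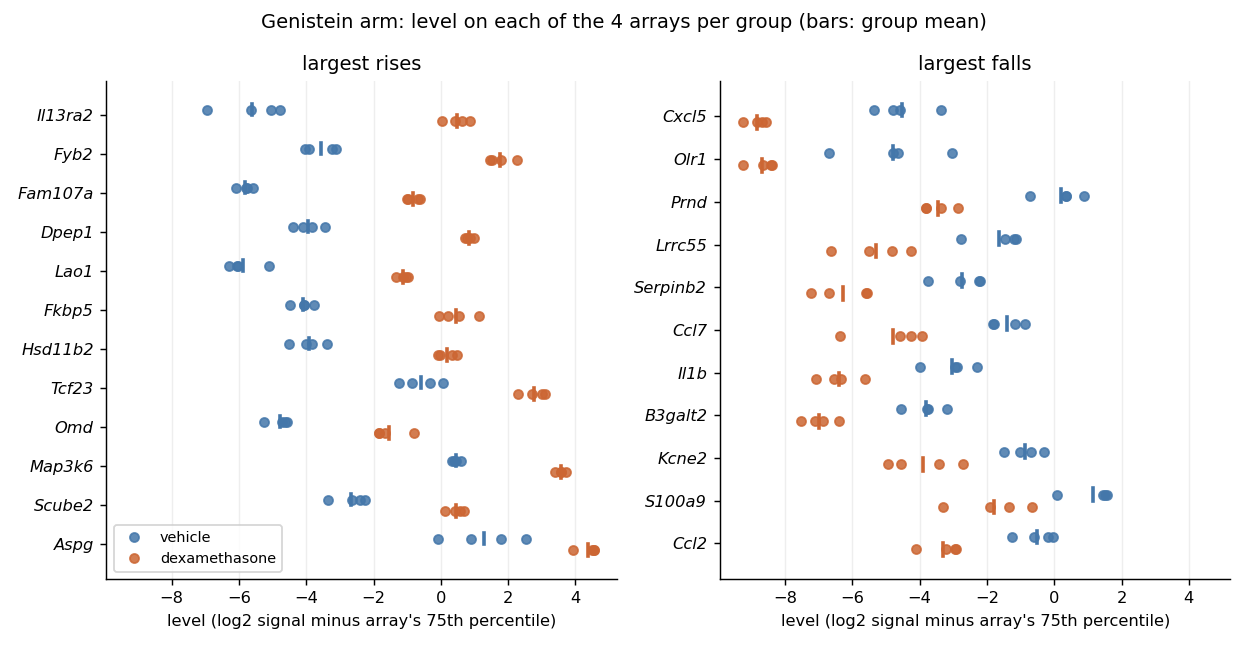
Level of the 12 largest rises (left) and 11 of the 12 largest falls by fitted change (right) on each of the 4 vehicle and 4 dexamethasone arrays, with short bars at the group means. The horizontal axis is log2 signal relative to the array's 75th percentile. Genes were ranked only among called ones whose groups did not overlap.

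The 12 largest rises, shown with 11 of the 12 largest falls in the plot of levels per array, reached well beyond the classical list. Both were ranked among called genes whose groups did not overlap, so their separation was set by that choice. Il13ra2, a decoy receptor that traps interleukin-13, rose most. It was at -5.05, -4.78, -5.66 and -6.94 on the vehicle arrays and 0.86, 0.43, 0.63 and 0.04 on the dexamethasone arrays, a 68.4-fold rise (6.10 ± 0.49, adjusted p = 9.2e-06). The lowest dexamethasone array lay 4.82 above the highest vehicle array. Fyb2, an adaptor protein of lymphocyte signalling, was at -4.03, -3.92, -3.11 and -3.24 on the vehicle arrays and 1.46, 2.27, 1.80 and 1.52 on the dexamethasone arrays, a 40.4-fold rise (5.34 ± 0.28, adjusted p = 1.3e-07). Dpep1, a membrane dipeptidase that cleaves leukotriene D4, was at -4.09, -3.83, -3.44 and -4.39 on the vehicle arrays and 0.72, 1.00, 0.86 and 0.77 on the dexamethasone arrays. Its change of 4.78 ± 0.21, adjusted p = 3.8e-08 had a small error, and its dexamethasone arrays lay within 0.28 of each other. Lao1, an L-amino acid oxidase, was at -6.05, -5.10, -6.03 and -6.31 on the vehicle arrays and -1.03, -1.11, -0.97 and -1.34 on the dexamethasone arrays (4.76 ± 0.31, adjusted p = 9.7e-07).

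Tcf23, a helix-loop-helix factor of the uterus, was at -0.31, 0.06, -1.25 and -0.85 on the vehicle arrays and 3.00, 3.11, 2.71 and 2.29 on the dexamethasone arrays, with a change of 3.36 ± 0.29, adjusted p = 1.7e-05. Omd, the keratan sulphate proteoglycan osteomodulin, was at -4.71, -4.57, -5.27 and -4.62 on the vehicle arrays and -0.80, -1.85, -1.85 and -1.67 on the dexamethasone arrays (3.25 ± 0.31, adjusted p = 3.9e-05). Scube2, a secreted protein that helps release Hedgehog ligands, was at -2.25, -2.40, -3.36 and -2.64 on the vehicle arrays and 0.68, 0.57, 0.41 and 0.12 on the dexamethasone arrays (3.11 ± 0.33, adjusted p = 9.0e-05). The groups lay 2.23 apart for Tcf23, 2.72 for Omd and 2.38 for Scube2. Aspg, an asparaginase, was at 1.78, 2.53, 0.90 and -0.08 on the vehicle arrays and 4.49, 4.55, 4.55 and 3.92 on the dexamethasone arrays, a change of 3.09 ± 0.49, adjusted p = 0.002. Its vehicle arrays ranged over 2.6, with the lowest value on array 4, whereas 3 of its dexamethasone arrays lay within 0.06. The calls of the 12 largest rises held in every tested alternative.

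Promoter sequence was then set beside these changes. RefSeq windows (build GRCm38.p6) from 250 bases before to 50 bases after each annotated start were searched on both strands for the palindrome bound by the glucocorticoid receptor (GNACA, 3 bases of any kind, TGTNC). It was present for 60 of 13138 tested genes with a window (0.457%) and in 156 of all 32851 windows (0.475%). Among called genes it was present for 10 of 424 that rose (2.36%) and 2 of 449 that fell (0.445%). Among changes of at least 4-fold it was found for 5 of 51 rises (9.80%) and 0 of 33 falls. These counts describe letters in a short window, and the windows of Fkbp5, Tsc22d3 and Per1 held none. A few genes with large or well-known responses that carry the palindrome are shown as the 250 bases before the start, 5′ to 3′ on the gene's strand, with the palindrome in capitals.
Fam107a, chr14:8309780-8310029, minus strand: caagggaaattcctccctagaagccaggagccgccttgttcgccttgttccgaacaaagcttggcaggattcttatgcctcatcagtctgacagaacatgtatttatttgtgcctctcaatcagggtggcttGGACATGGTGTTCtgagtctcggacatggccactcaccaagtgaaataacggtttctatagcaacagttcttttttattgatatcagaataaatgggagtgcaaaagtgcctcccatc
Fyb2, chr4:104913311-104913560, plus strand: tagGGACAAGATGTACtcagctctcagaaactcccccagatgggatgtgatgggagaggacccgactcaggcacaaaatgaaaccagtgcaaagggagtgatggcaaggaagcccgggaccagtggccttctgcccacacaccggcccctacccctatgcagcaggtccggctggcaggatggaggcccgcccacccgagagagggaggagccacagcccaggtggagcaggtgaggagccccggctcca
Map3k6, chr4:133240568-133240817, plus strand: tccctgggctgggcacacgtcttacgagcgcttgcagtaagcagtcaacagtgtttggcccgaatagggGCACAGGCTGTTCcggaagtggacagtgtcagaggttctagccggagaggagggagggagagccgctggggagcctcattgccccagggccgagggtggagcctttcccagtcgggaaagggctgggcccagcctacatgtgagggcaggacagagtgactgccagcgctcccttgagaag
Sgk1, chr10:21993640-21993889, plus strand: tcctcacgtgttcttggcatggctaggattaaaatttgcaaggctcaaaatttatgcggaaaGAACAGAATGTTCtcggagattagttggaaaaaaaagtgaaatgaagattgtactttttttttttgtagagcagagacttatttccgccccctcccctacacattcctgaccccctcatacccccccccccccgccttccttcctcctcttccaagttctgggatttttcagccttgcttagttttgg
In Fam107a the palindrome begins 118 bases before the start, in Fyb2 247, in Map3k6 181 and in Sgk1 188. Fam107a has 3 annotated windows and Sgk1 has 6, and those shown are ones that hold the palindrome.

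Another 6 genes that rose held the palindrome. Only the 13 bases are printed for them, so that their outer bases and the 3 central ones can be compared.
Slc10a6: GAACACGATGTGC
Mt1: GGACATGATGTTC
Serpina3n: GCACAGCTTGTCC
Kcna5: GTACAACCTGTTC
Tinagl1: GTACACATTGTCC
Galnt11: GAACACGTTGTAC
Slc10a6, a transporter of sulphated steroids, rose by 2.85 ± 0.28, adjusted p = 4.6e-05. Kcna5, a voltage-gated potassium channel, rose by 1.88 ± 0.33, adjusted p = 0.0038. These genes, with Tinagl1 (0.81) and Galnt11 (0.52), were picked because their windows hold the palindrome, after values had been seen. Mt1, the metal-binding metallothionein, rose by 1.45 ± 0.32, adjusted p = 0.018, and Serpina3n, an acute-phase protease inhibitor, by 2.12 ± 0.48, adjusted p = 0.019. The calls of Mt1 and Serpina3n were each lost without vehicle array 1 or 2 or dexamethasone array 2 or 3 (adjusted p up to 0.059 and 0.066). The 2 genes that fell and held the palindrome were Atf7ip (-0.6) and Ipcef1 (-1.31).

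Genes that terminate inflammatory signalling moved both ways. Of 30 measured terminators, 5 rose and 3 fell, with a median of -0.16 (0.10 after normexp background correction). Besides Tsc22d3 and Dusp1, the rises were Zfp36 (1.18 ± 0.20, adjusted p = 0.0033), which speeds decay of cytokine mRNA, and the NF-kappaB inhibitors Nfkbia (1.08 ± 0.24, adjusted p = 0.019) and Nfkbib (0.59 ± 0.13, adjusted p = 0.014). Nfkbia, or IκBα, holds NF-kappaB in the cytoplasm. Its call was lost without vehicle array 1 or 2 or dexamethasone array 1 or 3 (adjusted p up to 0.062). The falls were Nfkbie (-1.06 ± 0.18, adjusted p = 0.0039), a related inhibitor, Socs2 (-1.0 ± 0.17, adjusted p = 0.0038), a suppressor of cytokine signalling, and Il1rn (-2.65 ± 0.64, adjusted p = 0.028), the antagonist of the interleukin-1 receptor. The call of Il1rn was lost in 5 of 16 omissions (adjusted p up to 0.076). The name of the list thus covers members that moved in opposite directions.

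Cytokines and their receptors included Il13ra2, the largest rise. Of 46 measured members 5 rose and 9 fell, and the median was -0.35 (0.20 after normexp correction). Il1b, the inflammatory cytokine interleukin-1β, was at -2.95, -4.0, -2.90 and -2.29 on the vehicle arrays and -5.62, -6.56, -6.33 and -7.07 on the dexamethasone arrays. The groups did not overlap, the change was -3.36 ± 0.41, adjusted p = 3.0e-04, and 3 of 4 dexamethasone arrays were well above background. The call of Il1b was lost in 1 tested alternative (adjusted p up to 0.35). Csf3r, the receptor for granulocyte colony-stimulating factor, fell (-1.63 ± 0.22, adjusted p = 5.8e-04). So did Csf2rb (-1.12 ± 0.22, adjusted p = 0.0079), the shared chain of receptors for interleukin-3, interleukin-5 and Csf2. Another probe of Csf2rb gave 0.46. Csf2 itself was well above background on 3 vehicle arrays and no dexamethasone array, so its fall is at least 1.45-fold (adjusted p = 0.012). After normexp correction the change of Csf3r was 0.015, below the 0.31 of all genes, and that of Csf2 was 0.87, above it. Besides Il13ra2, the rises were the receptor chains Il15ra (1.10 ± 0.21, adjusted p = 0.008), Il6ra (0.97 ± 0.18, adjusted p = 0.0059) and Il7r (1.11 ± 0.28, adjusted p = 0.034), and the cytokine Il34 (0.63 ± 0.17, adjusted p = 0.042). The call of Il7r was lost without vehicle array 1, 2 or 4 or dexamethasone array 3 (adjusted p up to 0.081) and that of Il34 in 11 of 16 omissions (adjusted p up to 0.12). The number of falls was 5 without vehicle array 4 or dexamethasone array 2 and 6 without vehicle arrays 3 and 4, and the number of rises was 3 without vehicle array 1, vehicle array 4 or dexamethasone array 3.

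Every called chemokine gene fell. Of 41 measured ligands and receptors 13 fell and none rose, with a median change of -0.96 and within-slide medians of -0.85, -1.03 and -0.79. Leaving out single arrays gave 10 to 14 falls, and 10 fell without vehicle arrays 3 and 4. Ccl2, the main attractant of monocytes, was at -0.03, -1.25, -0.19 and -0.60 on the vehicle arrays and -3.23, -2.93, -2.96 and -4.10 on the dexamethasone arrays, a 6.9-fold fall (-2.79 ± 0.39, adjusted p = 7.8e-04). Ccl7, a related monocyte attractant, was at -0.86, -1.78, -1.17 and -1.83 on the vehicle arrays and -4.27, -3.92, -4.58 and -6.36 on the dexamethasone arrays, a 10.4-fold fall (-3.37 ± 0.50, adjusted p = 0.0012). Dexamethasone array 4 was the lowest for both. Cxcl5, a neutrophil attractant, was well above background on all vehicle arrays and on no dexamethasone array. Its call was lost in 1 tested alternative (adjusted p up to 0.95). Its levels were -4.78, -5.37, -3.35 and -4.58 on the vehicle arrays and -9.25, -8.68, -8.57 and -8.82 on the dexamethasone arrays. With the scanner software's background subtraction its fall is at least 5.67-fold (fitted change -4.31 ± 0.56, adjusted p = 5.1e-04). That bound was not computed under other background corrections. The interferon-induced Cxcl10 was at 0.21, -0.25, 1.14 and -0.22 on the vehicle arrays and -2.06, -2.73, -2.17 and -2.22 on the dexamethasone arrays (-2.52 ± 0.52, adjusted p = 0.012). Vehicle array 3 was its highest, and the groups were still 1.805 apart. Smaller falls were found for Ccl4 (-1.82), the lymphatic attractant Ccl21a (-1.34) and the scavenger chemokine Cxcl16 (-1.27), with adjusted p between 7.0e-04 and 0.0032. In bulk tissue, fewer cells of a type and less RNA per cell cannot be told apart, here and for each gene group below.

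The promoter of Cxcl10 is shown because it holds 2 matches to the NF-kappaB consensus, in capitals, beginning 159 and 103 bases before the start. The consensus was found for 814 of 13138 tested genes with a window (6.2%), for 33 of 424 that rose (7.78%), for 39 of 449 that fell (8.69%) for 6 of 33 that fell at least 4-fold (18.2%) and for 2 of 51 that rose at least 4-fold (3.92%).
Cxcl10, chr5:92348890-92349139, minus strand: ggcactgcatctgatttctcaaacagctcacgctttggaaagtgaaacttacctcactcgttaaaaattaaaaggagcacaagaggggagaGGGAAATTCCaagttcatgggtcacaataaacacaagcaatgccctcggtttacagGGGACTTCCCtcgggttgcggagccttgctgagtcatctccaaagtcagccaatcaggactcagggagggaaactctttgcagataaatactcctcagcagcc
The remaining motifs were searched in the same windows. AP-1 (TGANTCA) was found for 8.49% of genes that rose and 8.91% of genes that fell, against 7.16% of tested genes. Among changes of at least 4-fold it was found for 8 of 51 rises (15.7%) and 5 of 33 falls (15.2%). The E-box CACGTG was found for 13.7% of rises and 9.35% of falls, against 10.5%, and for 7 of 51 rises (13.7%) and 3 of 33 falls (9.09%) of at least 4-fold.

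Innate sensing, lipid mediators and interferon-stimulated genes gave fewer calls, most of them falls. Among 32 measured sensors and NF-kappaB subunits 1 rose and 4 fell. The fungal lectin Clec4n (-1.96 ± 0.27, adjusted p = 7.0e-04), the NF-kappaB subunit Relb (-0.95 ± 0.16, adjusted p = 0.0029), the lipopeptide sensor Tlr1 (-0.96 ± 0.21, adjusted p = 0.015) and the inflammatory caspase Casp4 (-0.84 ± 0.23, adjusted p = 0.047) fell. Tlr7, the sensor of single-stranded RNA, was the rise. It was at -3.35, -3.15, -2.86 and -3.12 on the vehicle arrays and -2.23, -1.79, -1.82 and -1.57 on the dexamethasone arrays (1.26 ± 0.19, adjusted p = 0.0012), with no overlap. The call of Casp4 was lost in 12 of 16 omissions (adjusted p up to 0.13). Of 27 prostanoid and leukotriene genes none rose and 5 fell, among them the 5-lipoxygenase Alox5 (-1.27 ± 0.18, adjusted p = 0.0011) and the prostaglandin E receptor Ptger3 (-0.96 ± 0.19, adjusted p = 0.0091). Ptgir, the prostacyclin receptor, fell by its main probe (-1.52 ± 0.25, adjusted p = 0.0024), and another of its probes gave 1.26. The call of Ptgir was lost in 2 tested alternatives (adjusted p up to 0.92). The remaining falls, Hpgds (-1.13) and Alox12 (-0.53), were lost in 8 and 7 of 16 omissions (adjusted p up to 0.098 and 0.11). The count of falls was 3 in 7 of 16 omissions, among them each vehicle array, and 3 without vehicle arrays 3 and 4.

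Interferon-stimulated genes numbered 37, of which 8 fell and none rose, with a median of -0.63. Within slides the median was -0.50, -0.78 and -0.09. Gbp2, a guanylate-binding GTPase of cell-autonomous defence, was at 3.52, 2.68, 4.15 and 3.29 on the vehicle arrays and 1.00, 1.81, 1.91 and 1.25 on the dexamethasone arrays (-1.92 ± 0.34, adjusted p = 0.0047). Its relatives Gbp4 (-1.67 ± 0.34, adjusted p = 0.01) and Gbp7 (-1.02 ± 0.21, adjusted p = 0.012) fell too. The count was 4 without vehicle array 1, vehicle array 3 or dexamethasone array 2, and 6 without vehicle arrays 3 and 4. The list level overlapped slightly between groups, since vehicle array 4 (0.02) lay below dexamethasone array 4 (0.03). None of 24 complement genes was called by limma. The smallest p-values there belonged to the chaperone Clu (-0.77 ± 0.23, adjusted p = 0.077) and to C4b. C4b was at 1.11, 1.38, 1.26 and 1.15 on the vehicle arrays and 0.15, 0.77, 0.75 and 0.84 on the dexamethasone arrays (-0.60 ± 0.19, adjusted p = 0.083). These were the 2 of 24 complement genes whose groups did not overlap, a smaller share than the 12.2% of all genes.

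Markers of leukocytes moved with these genes. Of 15 measured neutrophil markers 7 fell and none rose (median -1.35, or 0.44 after normexp correction). Without vehicle arrays 3 and 4 the count of falls was 4, and Lcn2, a granule protein that uterine epithelium also makes, was called higher (2.16). The summed signal of all 15, in multiples of the 75th percentile, was 3.13 to 5.90 on the vehicle arrays and 1.81 to 2.67 on the dexamethasone arrays. Within slides the median was -1.71, -2.02 and -0.82. All 15 were well above background on at least 1 array, and 9 of 15 on all 8. S100a9, a calcium-binding protein abundant in neutrophils, was at 1.57, 0.08, 1.46 and 1.5 on the vehicle arrays and -1.90, -1.34, -0.65 and -3.30 on the dexamethasone arrays. Vehicle array 2 and dexamethasone array 3 came closest, and the change was -2.95 ± 0.56, adjusted p = 0.0072. Its partner S100a8 changed by -1.88 ± 0.43, adjusted p = 0.019, a call lost without vehicle array 1 or 4 (adjusted p up to 0.059). Over all tested alternatives the call of S100a8 was lost in 6 (adjusted p up to 0.35). The formyl peptide receptors Fpr1 (-1.63 ± 0.25, adjusted p = 0.0015) and Fpr2 (-2.75 ± 0.42, adjusted p = 0.0017) fell. Each call was lost in 1 tested alternative (adjusted p up to 0.93 and 0.94). Fpr2 was well above background on 1 dexamethasone array, and its other probe gave -0.74. Retnlg, a resistin-like protein of granulocytes, was at -0.72, 0.03, -0.15 and 0.28 on the vehicle arrays and -2.20, -2.24, -2.67 and -1.64 on the dexamethasone arrays (-2.05 ± 0.27, adjusted p = 5.2e-04), again without overlap. The part of neutrophil number in the falls of Il1b, Csf3r and the chemokines was not tested.

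Macrophage and dendritic cell markers numbered 34, of which 1 rose and 8 fell, with a median of -0.70. Their summed signal was 84.6 to 133 on the vehicle arrays and 48.8 to 65.3 on the dexamethasone arrays. The median was -0.65, -0.69 and 0.06 within the slides, and 33 of 34 were well above background on all 8 arrays. Aif1, or Iba1, was at 1.98, 1.67, 1.85 and 1.63 on the vehicle arrays and 0.53, -0.20, 0.53 and 0.59 on the dexamethasone arrays (-1.42 ± 0.18, adjusted p = 4.3e-04). Dexamethasone array 2 was far below the other 3. Cd83, a dendritic cell maturation marker, changed by -1.66 ± 0.23, adjusted p = 6.6e-04, and the high-affinity IgG receptor Fcgr1 by -1.61 ± 0.21, adjusted p = 5.2e-04. Cd163, the haemoglobin scavenger receptor of macrophages and itself a classical glucocorticoid target, moved the other way. It was at -4.64, -5.65, -5.00 and -3.49 on the vehicle arrays and -2.20, -2.64, -2.44 and -3.05 on the dexamethasone arrays (2.12 ± 0.50, adjusted p = 0.025), and its call was lost in 6 of 16 omissions (adjusted p up to 0.071). The count of falls was 5 without dexamethasone array 3 and 6 without vehicle arrays 3 and 4.

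Lymphocyte and eosinophil markers held few calls in number, yet a larger share than the 5.29% of all genes called. Of 32 lymphocyte markers 2 rose and 3 fell, and single omissions left 0 to 2 rises and 1 to 3 falls. None rose and 2 fell without vehicle arrays 3 and 4. Ptprc, the pan-leukocyte antigen CD45, was at 0.57, 0.34, 0.40 and 0.56 on the vehicle arrays and -0.13, -0.39, -0.13 and -0.39 on the dexamethasone arrays (-0.73 ± 0.12, adjusted p = 0.0021), with every dexamethasone array below every vehicle array. The B cell marker Ms4a1 (-1.82), the cytokine receptor chain Il2rg (-0.73), Il7r and the natural killer receptor Klrb1c (0.84) were called, and the calls of Ms4a1, Il2rg and Klrb1c were lost in 5, 9 and 5 of 16 omissions (adjusted p up to 0.071, 0.1 and 0.083). Of 13 eosinophil and mast cell markers, Siglecf (-1.75 ± 0.39, adjusted p = 0.018) and Ccr3 (-1.08 ± 0.24, adjusted p = 0.018) fell. Siglecf was well above background on 2 dexamethasone arrays. The summed signal of all 13 was higher with dexamethasone, between 13 and 21.8 against 6.44 and 12.7 on the vehicle arrays. The call of Siglecf was lost without dexamethasone array 3 or 4 (adjusted p up to 0.057) and that of Ccr3 without dexamethasone array 2 or 3 (adjusted p up to 0.056). Neither was called without vehicle arrays 3 and 4. After normexp correction the change of Siglecf was 0.43, above the 0.31 of all genes, and that of Ccr3 was 0.073, below it.

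**Figure D3:**
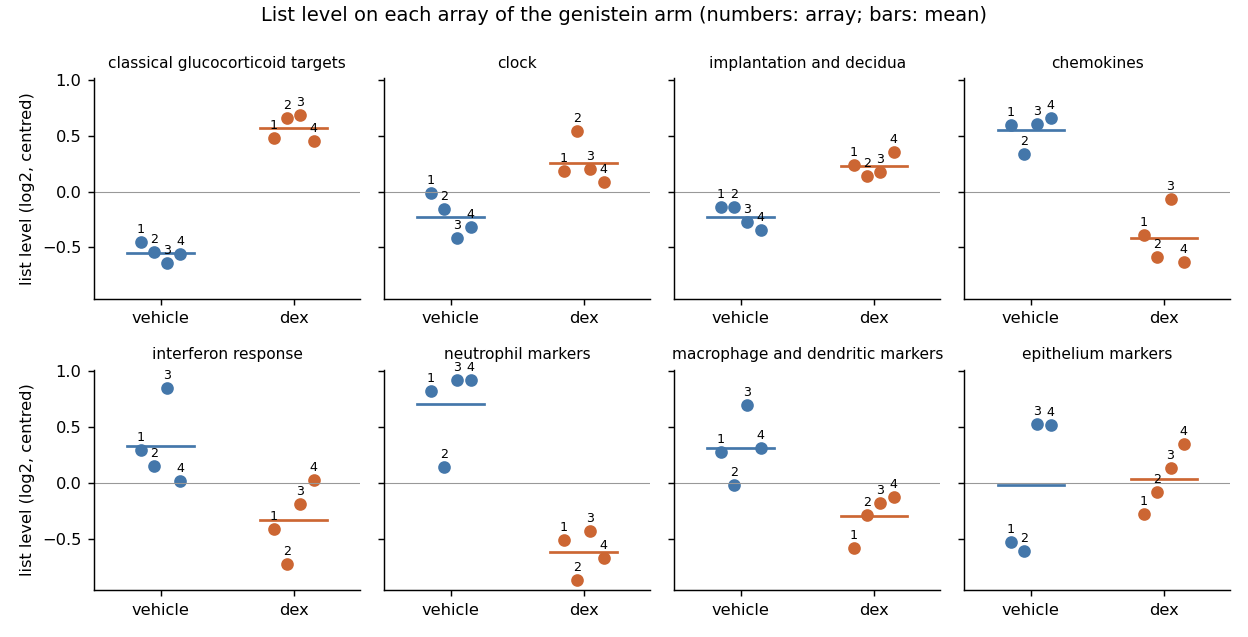
List level on each array of the genistein arm for 8 gene lists, as the median over members of the deviation from each gene's mean over the 8 arrays (vertical axis, log2), with array numbers beside the points and bars at group means. Classical targets, clock, implantation, chemokine, neutrophil and macrophage lists separated the groups, interferon genes overlapped at 0.02 and 0.03, and epithelium markers split the vehicle arrays.

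The largest falls outside the immune lists belonged to genes of several kinds. Prnd, a prion-like protein, was at 0.34, 0.87, 0.34 and -0.71 on the vehicle arrays and -3.37, -3.81, -3.82 and -2.85 on the dexamethasone arrays (-3.67 ± 0.44, adjusted p = 2.9e-04). Lrrc55, an auxiliary subunit of large-conductance potassium channels, changed by -3.65 ± 0.50, adjusted p = 7.2e-04, with 3 of 4 dexamethasone arrays well above background. The groups lay 2.13 apart for Prnd and 1.47 for Lrrc55. B3galt2, a galactosyltransferase, changed by -3.16 ± 0.60, adjusted p = 0.0072, with 2 dexamethasone arrays above background. The call of B3galt2 was lost in 1 tested alternative (adjusted p up to 0.77). Kcne2, an ancillary potassium channel subunit, was at -0.30, -0.70, -1.03 and -1.5 on the vehicle arrays and -4.55, -4.94, -3.42 and -2.73 on the dexamethasone arrays (-3.03 ± 0.63, adjusted p = 0.012), and its dexamethasone arrays spread over 2.21. Olr1, a receptor for oxidised low-density lipoprotein, was above background on 3 vehicle arrays and on no dexamethasone array, a fall of at least 4.72-fold (adjusted p = 0.0031). After normexp correction its change was 0.035, below the 0.31 of all genes.

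Clock genes rose where they changed. Of 24 measured members 8 rose and none fell (6 rises without vehicle arrays 3 and 4), with a median of 0.40 and within-slide medians of 0.15, 1.08 and 0.21. Per1, a core repressor of the clock with well-known glucocorticoid response elements, was at 0.58, 0.71, 0.48 and 0.39 on the vehicle arrays and 2.91, 3.28, 3.11 and 2.74 on the dexamethasone arrays, a 5.54-fold rise (2.47 ± 0.21, adjusted p = 1.7e-05). The vehicle arrays spread over 0.31 and the dexamethasone arrays over 0.54. Ciart, a repressor of the CLOCK and BMAL1 dimer, was at -3.48, -3.34, -3.57 and -3.83 on the vehicle arrays and -0.99, -1.16, -1.53 and -1.96 on the dexamethasone arrays (2.15 ± 0.33, adjusted p = 0.0018). Nfil3, a repressor of D-box genes, rose by 1.79 ± 0.15, adjusted p = 1.7e-05, Per2 by 1.33 ± 0.20, adjusted p = 0.0013 and Cry1 by 1.22 ± 0.27, adjusted p = 0.018. Another probe of Per2 gave 0.21, and the largest Cry1 level was that of dexamethasone array 2, on the same slide that gave the highest within-slide median. Usp2, a deubiquitinase that stabilises clock proteins, rose by 1.18 ± 0.24, adjusted p = 0.0099. Noct (1.03) and Clock (0.57) completed the count, with calls lost in 12 and 8 of 16 omissions (adjusted p up to 0.11 and 0.1).

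Transcription factors of the KLF and C/EBP families gave 6 rises and no fall among 26 measured members, and 5 rises and 2 falls without vehicle arrays 3 and 4. Cebpd, an early factor in many hormone responses, was at 3.62, 3.22, 3.36 and 3.70 on the vehicle arrays and 5.13, 5.02, 5.37 and 5.41 on the dexamethasone arrays (1.76 ± 0.20, adjusted p = 2.0e-04). The groups were 1.32 apart. Klf13 rose by 0.86 ± 0.16, adjusted p = 0.0053. Cebpb (0.73 ± 0.18, adjusted p = 0.029) and Cebpa (0.86 ± 0.20, adjusted p = 0.024) rose less, and the call of Cebpb was lost in 5 of 16 omissions (adjusted p up to 0.08) and that of Cebpa without vehicle array 2 or 4 or dexamethasone array 2 or 3 (adjusted p up to 0.073). Immediate early genes, which respond to growth factors and stress within minutes, showed 2 rises and 1 fall among 24. Egr2 was the fall, at 0.08, -0.53, -0.33 and -0.31 on the vehicle arrays and -1.37, -1.75, -1.53 and -2.0 on the dexamethasone arrays (-1.39 ± 0.25, adjusted p = 0.0043). Zfp36 and Fosl2 (0.46 ± 0.11, adjusted p = 0.028) were the rises. The call of Fosl2 was lost in 5 of 16 omissions (adjusted p up to 0.079).

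Growth and metabolism genes changed in selected members. Of 34 insulin and IGF pathway genes 4 rose and none fell (3 rises and 1 fall without vehicle arrays 3 and 4). Igf1, the growth factor that estrogen also induces in the uterus, was at 0.94, 1.24, 1.13 and 0.96 on the vehicle arrays and 3.04, 3.11, 3.04 and 3.49 on the dexamethasone arrays, a 4.28-fold rise (2.10 ± 0.22, adjusted p = 7.9e-05). Every dexamethasone array exceeded every vehicle array by at least 1.79. Hk2, a hexokinase, rose by 0.98 ± 0.21, adjusted p = 0.013, Pik3r1, the regulatory subunit of PI3 kinase, by 0.80 ± 0.16, adjusted p = 0.01, and Pdk4, which limits pyruvate oxidation, by 1.40 ± 0.34, adjusted p = 0.027. Other probes of Pik3r1 gave 0.33, 0.30 and 0.53, and its call was lost in 4 tested alternatives (adjusted p up to 0.30). The call of Pdk4 was lost in 5 of 16 omissions (adjusted p up to 0.076). Of 29 inhibitors of mTORC1, growth arrest and stress genes 5 rose and 4 fell, with 2 falls without vehicle array 1 or 2 or dexamethasone array 2, 3 or 4, and 2 rises without vehicle arrays 3 and 4. Ddit4 was at 3.31, 3.35, 3.73 and 4.38 on the vehicle arrays and 5.78, 5.79, 5.92 and 5.99 on the dexamethasone arrays (2.18 ± 0.25, adjusted p = 1.7e-04), Cdkn1a rose by 1.88 ± 0.27, adjusted p = 9.3e-04 and Sesn1 by 1.04 ± 0.21, adjusted p = 0.011. In the opposite direction, Sesn3, another sestrin, changed by -1.27 ± 0.18, adjusted p = 7.9e-04 and Trib2, a pseudokinase, by -0.93 ± 0.18, adjusted p = 0.0078. The remaining rises were Bnip3 (1.11) and Gadd45g (0.71), and the remaining falls were Ddit4l (-1.39) and Gadd45a (-0.95). The calls of Gadd45g, Ddit4l and Gadd45a were lost in 5, 5 and 6 of 16 omissions (adjusted p up to 0.092, 0.056 and 0.1). Bcl2l1, which encodes the survival protein Bcl-xL, was the single call among 29 apoptosis genes, at -0.10, -0.21, 0.48 and 0.44 on the vehicle arrays and 1.07, 1.28, 1.29 and 1.40 on the dexamethasone arrays (1.11 ± 0.17, adjusted p = 0.0017). With all arrays the apoptosis list thus held a smaller share of calls than the 5.29% of all genes. That list had 2 rises and 1 fall without vehicle arrays 3 and 4.

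Enzymes of amino acid metabolism contributed 6 rises and 3 falls among 34 genes, led by Dpep1 and Lao1. Glul, glutamine synthetase, was at 3.55, 3.57, 3.14 and 3.09 on the vehicle arrays and 4.48, 4.46, 4.70 and 4.47 on the dexamethasone arrays (1.19 ± 0.16, adjusted p = 5.8e-04), with its groups 0.895 apart. Il4i1, another L-amino acid oxidase, changed by -1.11 ± 0.19, adjusted p = 0.0033, opposite to Lao1. The amino acid carrier Slc38a4 changed by -1.60 ± 0.25, adjusted p = 0.0017, and another of its probes gave 0.21. Cda, cytidine deaminase, (-1.08) was the remaining fall, lost in 5 of 16 omissions (adjusted p up to 0.065). The count of rises was 3 without dexamethasone array 4. Sterol and lipid genes numbered 39, of which 3 rose and 1 fell. The rises Lpin3, a phosphatidate phosphatase, (1.70 ± 0.19, adjusted p = 1.7e-04) and Acot1, a cytosolic thioesterase, (1.18 ± 0.15, adjusted p = 4.8e-04) held in every tested alternative. The fall Plin2 (-0.71) was lost without vehicle array 3 or dexamethasone array 1, 2 or 3 (adjusted p up to 0.078), and 4 genes of this list rose and none fell without vehicle arrays 3 and 4.

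Metal and redox genes gave 6 rises and no fall among 34, and 3 rises without vehicle array 1 or dexamethasone array 2. There were 6 rises and 1 fall without vehicle arrays 3 and 4. Gpx3 was at 2.40, 2.30, 1.85 and 1.97 on the vehicle arrays and 3.47, 4.27, 3.87 and 3.42 on the dexamethasone arrays (1.63 ± 0.21, adjusted p = 5.4e-04). The zinc importer Slc39a8 rose by 1.40 ± 0.24, adjusted p = 0.0032 and xanthine dehydrogenase Xdh by 1.38 ± 0.20, adjusted p = 0.0011. None of these 3 had overlapping groups. Of 41 ion transport genes 3 rose and none fell, against 4 rises and 2 falls without vehicle arrays 3 and 4. Scnn1a, the alpha subunit of the epithelial sodium channel and a partner of Sgk1 in sodium uptake, was at -0.45, -0.51, -0.13 and -0.23 on the vehicle arrays and 0.92, 1.36, 1.53 and 1.53 on the dexamethasone arrays (1.66 ± 0.30, adjusted p = 0.0048). Car4, a membrane carbonic anhydrase, rose by 1.76 ± 0.41, adjusted p = 0.024, a call lost without dexamethasone array 1 or 2 (adjusted p up to 0.069).

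Genes of implantation and decidualization, the remodelling of uterine stroma that receives the embryo, rose in 11 of 35 measured members and fell in none. The median was 0.40, with 0.32, 0.52 and 0.36 within slides, and single-array omissions gave 8 to 11 rises. Without vehicle arrays 3 and 4 the median was 0.12, with 9 rises and 1 fall. Besides Tcf23, Errfi1 and Klf9, these included the prolactin receptor Prlr, at -2.91, -2.18, -1.83 and -1.63 on the vehicle arrays and -0.16, -0.76, -0.55 and -0.27 on the dexamethasone arrays (1.70 ± 0.32, adjusted p = 0.0063). The homeobox factors Hoxa11, at 4.17, 4.32, 3.23 and 3.18 on the vehicle arrays and 5.37, 5.25, 5.08 and 5.05 on the dexamethasone arrays (1.46 ± 0.25, adjusted p = 0.0034), and Hoxa10 (1.36 ± 0.26, adjusted p = 0.0064) are required for decidualization. Both were lower on vehicle arrays 3 and 4 than on vehicle arrays 1 and 2, and both groups stayed apart. Gata2, which acts upstream of the progesterone receptor, rose by 0.70 ± 0.14, adjusted p = 0.01 and the EGF receptor Egfr by 0.74 ± 0.16, adjusted p = 0.013. Other, dimmer probes of Egfr gave 0.30, 0.30 and 0.67. Ihh, the epithelial Hedgehog ligand that progesterone induces, was at -2.81, -2.41, -2.18 and -3.94 on the vehicle arrays and -1.18, -0.84, -0.71 and -0.50 on the dexamethasone arrays (2.03 ± 0.48, adjusted p = 0.025). Its call was lost in 5 of 16 omissions (adjusted p up to 0.069). The stromal factor Hand2 rose by 1.01 ± 0.25, adjusted p = 0.029, and its call was lost in 5 of 16 omissions (adjusted p up to 0.079).

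Of 34 estrogen- and progesterone-responsive genes 6 rose and none fell, with a median of -0.04 (6 rises and 1 fall without vehicle arrays 3 and 4). The rises were Igf1, Ihh, Cdkn1a, Gata2, the secreted channel regulator Clca3a1 (1.17 ± 0.23, adjusted p = 0.0092) and Vegfa (1.17 ± 0.31, adjusted p = 0.045). The call of Vegfa, the main angiogenic factor, was lost in 12 of 16 omissions (adjusted p up to 0.13), and its other probes gave 0.39, 0.28 and 0.80. The receptors themselves were not called by their brightest probes. Esr1 was at 3.06, 3.10, 2.02 and 2.76 on the vehicle arrays and 2.38, 1.29, 2.08 and 2.08 on the dexamethasone arrays (-0.78 ± 0.30, adjusted p = 0.17), with overlap. Its other, dimmer probe gave -1.01 ± 0.18, and the gene was called lower by limma when its probes were averaged (-0.90, adjusted p = 0.0098) and with array weights (-0.94, adjusted p = 0.0033). Pgr was at -1.63, -1.77, -0.60 and -1.30 on the vehicle arrays and -1.81, -2.0, -1.57 and -0.89 on the dexamethasone arrays (-0.24 ± 0.31, adjusted p = 0.77), also with overlap.

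Developmental signals moved both ways. Of 48 Wnt, Hox and Hedgehog genes 4 rose and 5 fell, with 2 rises without vehicle array 4 or dexamethasone array 3. Dkk2, a secreted Wnt modulator, was at 1.49, 1.55, 0.54 and 0.87 on the vehicle arrays and -0.59, -1.73, -1.20 and -1.03 on the dexamethasone arrays (-2.25 ± 0.31, adjusted p = 7.0e-04), and its groups were 1.13 apart. Sfrp4, a secreted Wnt antagonist, was at 2.49, 2.15, 2.28 and 2.33 on the vehicle arrays and 0.87, 1.04, 0.78 and 0.58 on the dexamethasone arrays (-1.5 ± 0.17, adjusted p = 2.0e-04), with a tight spread in both groups. The Wnt agonist Rspo1 changed by -1.15 ± 0.14, adjusted p = 3.5e-04 and the ligand Wnt2 by -1.95 ± 0.29, adjusted p = 0.0014. Ihh, Hoxa10 and Hoxa11 were among the rises. Wnt16 (-0.97 ± 0.22, adjusted p = 0.02) fell and the receptor Fzd4 (0.72 ± 0.17, adjusted p = 0.027) rose, with calls lost in 5 and 4 of 16 omissions (adjusted p up to 0.065 and 0.092). Among 66 growth factor genes 4 rose and 2 fell, with 2 rises without vehicle array 4 or dexamethasone array 2. Over all genes 2.49% rose and 2.8% fell, so the falls, and the rises in those omissions, were near the shares of all genes. Inhba, the activin subunit, was at 0.62, 0.80, -0.47 and -0.75 on the vehicle arrays and -1.62, -2.11, -1.76 and -1.69 on the dexamethasone arrays (-1.85 ± 0.31, adjusted p = 0.003). Fstl3, which binds and neutralises activin, moved the other way. It was at -2.28, -2.29, -1.59 and -2.76 on the vehicle arrays and -1.03, -0.44, -0.99 and -0.93 on the dexamethasone arrays (1.39 ± 0.31, adjusted p = 0.018), and its call was lost without vehicle array 4 or dexamethasone array 2 (adjusted p up to 0.059). Met, the receptor for hepatocyte growth factor, changed by -0.92 ± 0.20, adjusted p = 0.017. Errfi1, Vegfa and Egfr were the other rises.

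Matrix genes fell more often than they rose, with 10 falls and 5 rises among 53 and a median of -0.25. The falls numbered 5 or 6 without vehicle array 1 or dexamethasone array 1, 2 or 3, and 5 without vehicle arrays 3 and 4. The rises numbered 2 or 3 in 12 of 16 omissions and 3 without both those vehicle arrays. Timp1, an inhibitor of metalloproteinases, was at 2.16, 1.46, 2.94 and 2.38 on the vehicle arrays and -0.52, 0.31, 0.83 and 0.18 on the dexamethasone arrays, a 4.1-fold fall (-2.04 ± 0.37, adjusted p = 0.0054). The metalloproteinase Mmp11, made by uterine stroma, was at 3.39, 3.62, 2.78 and 2.98 on the vehicle arrays and 1.41, 1.65, 1.23 and 1.11 on the dexamethasone arrays (-1.84 ± 0.24, adjusted p = 4.6e-04). Both an inhibitor and a protease of this family therefore fell, and neither gene's groups overlapped. Mmp3, stromelysin, changed by -1.53 ± 0.33, adjusted p = 0.014. Serpinb2, the inhibitor of plasminogen activators PAI-2, was at -2.79, -3.74, -2.22 and -2.25 on the vehicle arrays and -7.23, -5.61, -5.58 and -6.68 on the dexamethasone arrays (-3.53 ± 0.77, adjusted p = 0.016), with 2 dexamethasone arrays above background and its call lost without dexamethasone array 1 (adjusted p up to 0.05). Adamts15, a versican-cleaving protease, was at 0.61, 0.39, 0.49 and 0.06 on the vehicle arrays and 1.68, 2.22, 2.20 and 1.88 on the dexamethasone arrays (1.61 ± 0.20, adjusted p = 3.1e-04), and Adamts4, a relative, rose by 1.27 ± 0.22, adjusted p = 0.0038. The other rises were Serpina3n, Mmp19 (0.79) and Adamts9 (0.59), of which the last 2 were lost in 13 and 12 of 16 omissions (adjusted p up to 0.12 for both). Of 16 small proteoglycans Omd rose while Lum (-0.97 ± 0.19, adjusted p = 0.0072) and Podn (-1.07 ± 0.29, adjusted p = 0.049) fell. The call of Podn was lost in 13 of 16 omissions (adjusted p up to 0.13), and its change was 0.27 after normexp correction, below the 0.31 of all genes. The proteoglycan list had 1 rise and 1 fall without vehicle arrays 3 and 4.

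Markers of structural cell types gave calls in some lists and none in others, to be set beside the 5.29% of all genes called. At that share, lists this short hold few calls or none. None of 25 epithelial, 22 smooth muscle, 22 adipocyte, 6 red cell, 32 proliferation or 28 ribosome and respiration genes was called by limma. Without vehicle arrays 3 and 4, 1 epithelial, 1 adipocyte and 1 proliferation gene rose, and the epithelial median was 0.58 against 0.13 with all arrays. Without vehicle array 3 alone 2 epithelial genes rose. The summed epithelial signal was 282 to 542 on the vehicle arrays and 346 to 502 on the dexamethasone arrays, and that of smooth muscle was 258 to 435 and 227 to 457. Of 24 stromal markers 4 rose and 4 fell, single omissions left 2 to 4 rises and 1 to 4 falls, and 2 rose and 3 fell without vehicle arrays 3 and 4. Hoxa10, Hoxa11, Hand2 and Mfap5 (0.85) rose, and Lum, the collagens Col3a1 (-0.94) and Col1a2 (-0.88) and the protease Fap (-0.66) fell. The calls of Mfap5, Col3a1, Col1a2 and Fap were lost in 9, 13, 2 and 6 of 16 omissions (adjusted p up to 0.1, 0.12, 0.066 and 0.09). Of 29 endothelial markers 1 rose and 4 fell. The apelin receptor Aplnr was at 0.49, 0.32, 0.02 and -0.93 on the vehicle arrays and -1.27, -1.37, -1.41 and -1.24 on the dexamethasone arrays (-1.29 ± 0.26, adjusted p = 0.011), with vehicle array 4 lowest in its group. The capillary protein Plvap changed by -1.12 ± 0.19, adjusted p = 0.0039 and Mmrn2 by -0.86 ± 0.16, adjusted p = 0.0075, while Lyve1 was the rise. Selp, the platelet and endothelial selectin, (-0.83) was the remaining fall, with another probe at 0.17 and a call lost in 9 of 16 omissions (adjusted p up to 0.11). Mesothelial markers, which could come from the serosal surface, included 2 falls among 11, Lrrn4 (-2.27 ± 0.30, adjusted p = 5.2e-04) and Rspo1. The squamous marker Sprr1a (-1.49) and the oviductal markers Ovgp1 (1.72) and Tekt1 (1.04) were called. These calls were lost in 10, 6 and 5 of 16 omissions (adjusted p up to 0.11, 0.1 and 0.084). No gene of the basal and squamous list or of the oviductal list was called without vehicle arrays 3 and 4. Of 31 heat shock and stress response genes, Atf4 rose (0.81 ± 0.18, adjusted p = 0.016), and 1 rose and 1 fell without vehicle arrays 3 and 4.

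**Figure D4:**
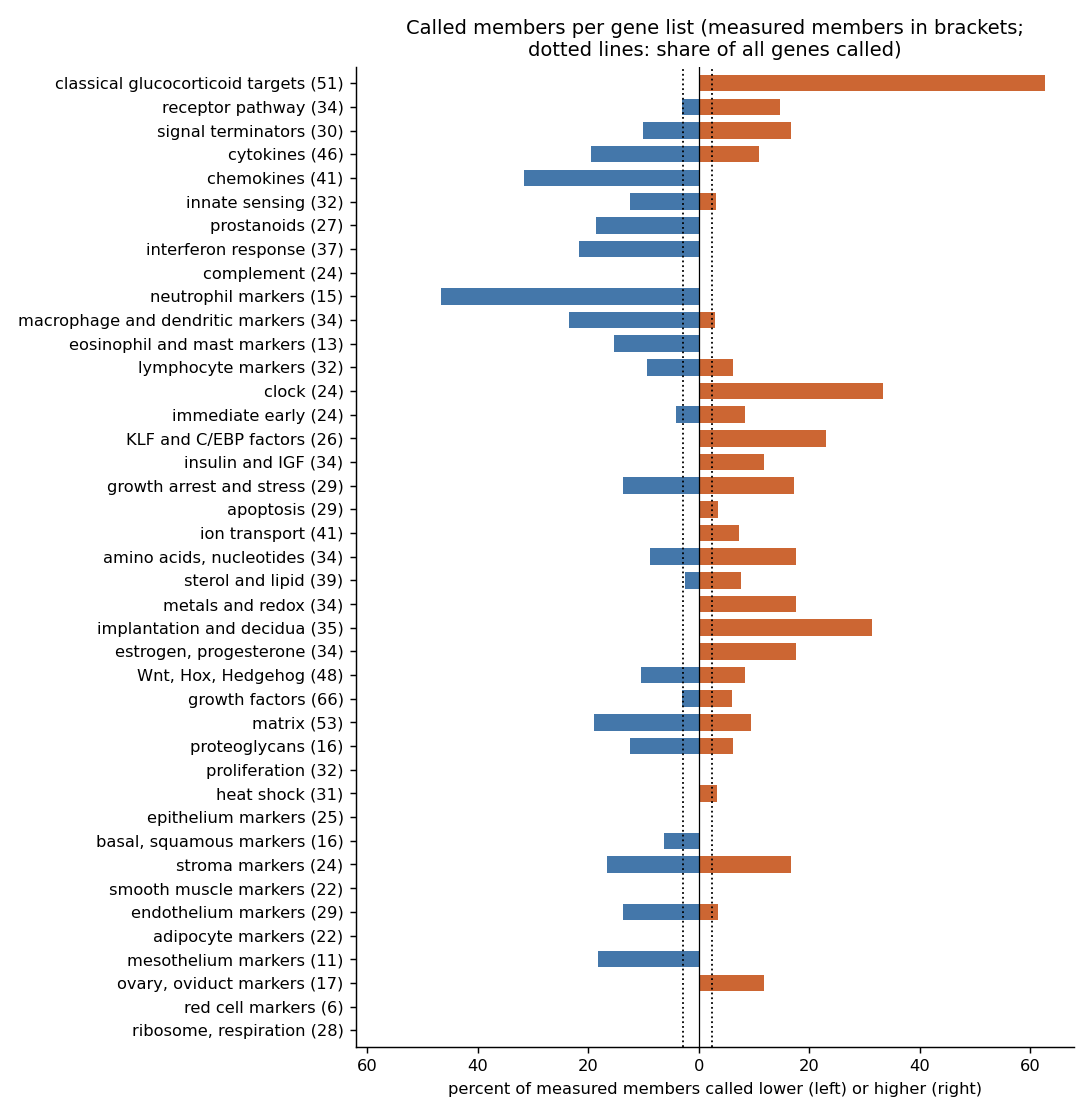
Percent of measured members called higher (right, 2.49% of all genes) and lower (left, 2.8% of all genes) for 41 gene lists, with the number measured in brackets and dotted lines at the shares over all genes. Classical targets stood out to the right with 32 of 51 members and neutrophil markers to the left with 7 of 15.

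The plot of called members by list places these groups beside the shares over all genes, 2.49% higher and 2.8% lower. Classical targets, clock and implantation genes lay far to the right of it, and chemokines, interferon, neutrophil and macrophage genes far to the left. Complement, proliferation, epithelium, smooth muscle, adipocyte, red cell and ribosome lists had no called member with all arrays.

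The same treatment was compared with that of neonatal controls, which asks whether early genistein altered the response. In the control arm 5669 genes were called (23%), 2082 higher and 3587 lower. Its arrays were less even in brightness than those of the genistein arm. The 75th percentile was 948 to 2029 on control vehicle arrays and 1987 to 2719 on control dexamethasone arrays. Control vehicle array 3 was the dimmest, with 68.9% of spots passing the background test. It was the only array on its slide and the only one scanned on another day. The part of this in the control calls was not tested. Both arms called 858 genes, which is 65.8% of the calls after genistein and 15.1% of those in controls, and 856 of them changed in the same direction. The difference between arms was tested directly, and limma called 0 of 24651 genes, with 3830 at an unadjusted p below 0.05. That is a larger share than the 0.05 expected if no gene differed, and the reason was not tested. The unequal counts therefore do not show that any single gene responded differently.

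The changes of leading members in both arms are given side by side. Fkbp5 changed by 4.56 ± 0.38 after genistein and 4.44 ± 0.38 in controls, a difference of 0.12 ± 0.54, adjusted p = 0.93. For Tsc22d3 the values were 2.40 ± 0.22 and 2.42 ± 0.22, and for Igf1 2.10 ± 0.22 and 2.12 ± 0.22. The medians of the classical list were 1.18 and 1.09. Chemokine medians were -0.96 and -0.80, and neutrophil medians -1.35 and -1.29. Other lists lay further apart. Adipocyte markers had a median of 0.04 after genistein and 1.94 in controls, with 0 and 12 of 22 called higher. Lymphocyte markers had -0.17 and -0.86, with 3 and 15 of 32 called lower. Smooth muscle markers had -0.11 and -0.70. None of their members was called for the arm difference, and the medians were not tested. Per1 was higher after genistein, 2.47 ± 0.21 against 1.47 ± 0.21 (difference 1.00 ± 0.30, adjusted p = 0.19). Aspg showed a wider gap, 3.09 ± 0.49 against 0.60 ± 0.49 (difference 2.50 ± 0.69, adjusted p = 0.18). Ihh changed by 2.03 ± 0.48 against 0.36 ± 0.48 (difference 1.66 ± 0.68, adjusted p = 0.27). Sgk1 went the other way, with 1.51 ± 0.21 against 2.38 ± 0.21 (difference -0.87 ± 0.29, adjusted p = 0.22). Among the falls, Retnlg changed by -2.05 ± 0.27 against -0.67 ± 0.27 (difference -1.37 ± 0.38, adjusted p = 0.18) and Ccl2 by -2.79 ± 0.39 against -3.47 ± 0.39. None of these differences passed the threshold. The smallest p-values for a difference among targets with a symbol belonged to Kcnn1, Grasp, Mypn, Nipal4 and Unc13c, with adjusted p of 0.16.

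**Figure D5:**
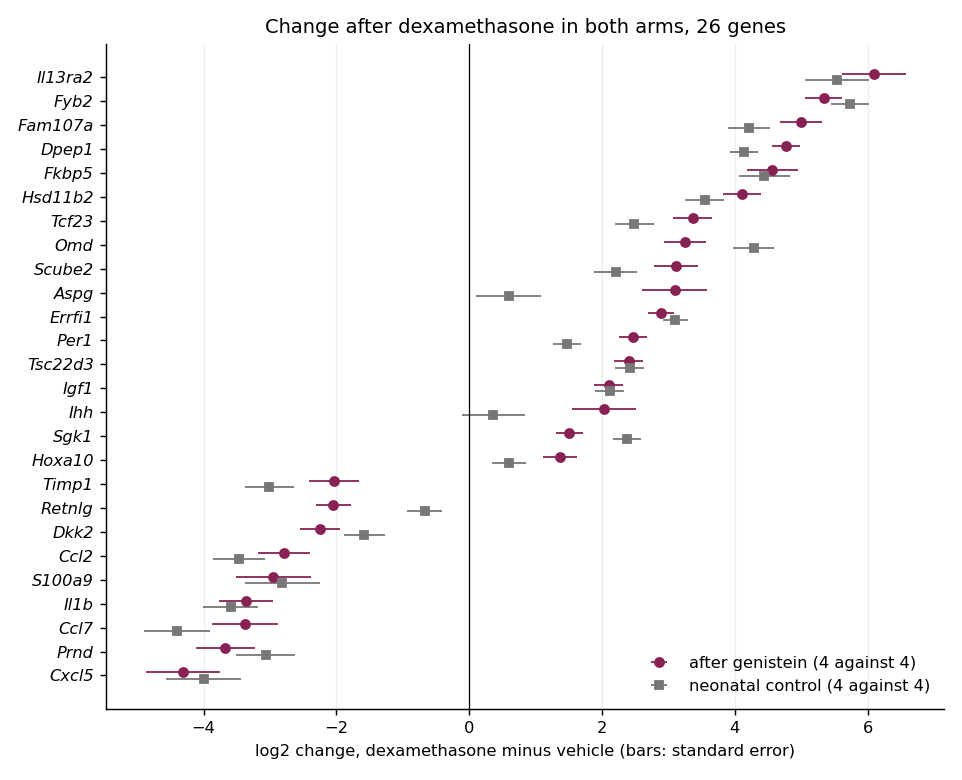
Change after dexamethasone (horizontal axis, log2, bars are standard errors) for 26 genes in the genistein arm (circles, 4 against 4 arrays) and the neonatal control arm (squares, 4 against 4 arrays). Fkbp5, Tsc22d3 and Igf1 nearly coincide, and Aspg (3.09 and 0.60) and Ihh (2.03 and 0.36) lie furthest apart.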

How the data were processed

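Total uterine RNA (400 ng per array) was labelled with Cy3 and hybridised to 1-colour Agilent mouse arrays, 1 sample per array. The deposited scanner files hold spot intensity that Agilent Feature Extraction had background-subtracted, version 12.0.0.7 per the file headers, whereas the submitters' processing notes name version 9.5. The deposited series table held the same intensity values (largest difference 0). How spot intensity was compared between arrays by the authors is not given in the sources used here.

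Spots that were not controls were taken as log2 and each array's 75th percentile of log2 signal was subtracted. Outlier spots were removed, replicate spots averaged, and 32598 probes were kept that passed the background test in 4 or more of 16 arrays, which left out 807 with missing values, Ltf among them. Zbtb16 was not analysed here, and some genes are not reported here. The brightest probe stood for each gene. Old array names were updated through RefSeq accessions (28223 of 29245 matched). All 4 groups were fitted together in limma 3.58.1 (R 4.3.3), with the spread pooled over the 16 arrays and Benjamini-Hochberg adjustment. The "at least" folds set the vehicle mean against the higher of the probe's own signal and the lowest signal well above background on each dexamethasone array. They hold for the scanner software's background subtraction only. The script was tested on simulated data.

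The comparison, the 41 gene lists and the leading genes were chosen with earlier results of these data known. Genes named were the 12 largest rises and falls with a symbol and no overlap, up to 5 called members of each list (2 where none was called), a fixed set around the receptor, and the 5 smallest p-values for the difference between arms, of which a selection is printed. Further list members and genes with the palindrome were added after their values were seen. Each of 37 alternative settings was tried: normalization, background correction, probe filters and choice, slide and replicate blocks, array weights, thresholds and omitted arrays.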

Additional observations from a re-analysis of the deposited data

Results flagged for a closer look

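Of 428 sets of 4 values tested, 15 held an array whose gap to the nearest other passed Dixon's critical value for 4 values, and chance gives about 1 in 20. The neutrophil list level of vehicle array 2 was 0.14, against 0.83 for the nearest other vehicle array. S100a9 behaved alike, with 0.08 on that array against 1.46. On vehicle array 4, Il34 (-1.84 against -1.27), Usp2 (-0.28 against 0.76) and Adamts9 (-0.97 against -0.39) were low. Plin2, a lipid droplet protein, was high on vehicle array 3 (4.37 against 3.95). The adipocyte list level of dexamethasone array 1 was -1.49, against 0.30 for the nearest other dexamethasone array, and the same array was low for C4b (0.15 against 0.75) and high for H6pd (3.68 against 3.20). Dexamethasone array 2 was low for Aif1 (-0.20 against 0.53) and high for Cry1 (-1.49 against -2.59). Glul was highest on dexamethasone array 3 (4.70 against 4.48). On dexamethasone array 4, Aspg (3.92 against 4.49) and Atf4 (1.41 against 1.53) were low and Igf1 (3.49 against 3.11) was high.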

How the results depend on the processing

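The number of called genes depended strongly on the model, from 1303 in the fit described. It was 382 after normexp background correction (252 higher, 130 lower), 571 with only the 8 genistein arrays (295 higher, 276 lower), where fewer arrays estimate the spread, and 831 with slide as a fixed block (371 higher). It was 6065 with array weights (2616 higher, 3449 lower) and 2046 at an adjusted p below 0.1 (967 higher, 1079 lower). The cause of these shifts was not tested. Leaving out single arrays gave 719 to 1230 called genes, 346 to 599 higher and 373 to 642 lower. The arm difference gave 96 calls with array weights, 1 without vehicle arrays 3 and 4 (an alternative chosen after seeing the data) and 0 to 1 in single omissions.

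Same-numbered vehicle and dexamethasone arrays did not deviate together (r = 0.25, -0.13, -0.11 and 0.20), so the numbers were not taken as pairs. With the replicate number as a block, 877 genes were called, 416 higher and 461 lower, and 0 for the arm difference.

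Of 168 called genes named in the text, 98 lost their call in at least 1 tested alternative, not counting changes of sign. The other 70 include Csf3r and Olr1, whose sign turned after normexp correction. Normexp correction alone ended 75 calls, again not counting changes of sign. After normexp correction the change was above 0 for 6 dim genes that had fallen: Csf2 (0.87), Siglecf (0.43), Podn (0.27), Ccr3 (0.073), Olr1 (0.035) and Csf3r (0.015). That correction moved the median change of all genes to 0.31, so its values read against that shift. Csf2 and Siglecf lay above it and the other 4 below it, and these distances from the median were not tested. Signal close to background limits what can be said of such genes.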
